A study of Homo sapiens with 6 samples.

Results

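Among the probes of the nCounter miRNA panel, miR-4454, miR-720, miR-4516, miR-4532 and miR-1268a carry miRNA names but are grouped here as likely pieces of tRNA, rRNA or repeats. They are 5 of the 800 miRNA rows measured and 5 of the 177 that the authors' deposited table names. The study used RMUG-S-ip1, an established human line of mucinous ovarian cancer, which received either an siRNA against PRKRA (siPRKRA, 3 libraries) or a control siRNA (3 libraries). Both groups were transfected with the lipid reagent RNAiMAX, had their medium changed after 6 hours, and gave 100 ng of total RNA per library. The line is a single one, and the labels do not say whether libraries of a group came from separate cultures, so any p-value measures only the spread between these libraries, which may be technical. The level of PRKRA itself was not analysed here. The entries were chosen by their presumed origin and by their measured values, above all their level in siPRKRA replicate 2, so that level is described and not tested.

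A usual miRNA is cut from a hairpin by Drosha and then by Dicer, and PACT, the protein PRKRA encodes, binds double-stranded RNA and partners with Dicer. Transfer RNA is made by RNA polymerase III, receives a CCA tail at its 3′ end, and is cut into short pieces by other nucleases, angiogenin among them, in stressed cells. Ribosomal RNA and repeats also shed short fragments, and several entries of the miRNA registry have since been traced to such RNA. miR-720 is one of these and is now regarded as a tRNA fragment.

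The mature sequences are shown because their ends and base composition set the entries apart from one another. RefSeq (GRCh38.p14) held 3 of the 5 under these names, and miR-720 and miR-4532 are named only. Capitals mark the seed, bases 2 to 8.
miR-4454: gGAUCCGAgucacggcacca
miR-4516: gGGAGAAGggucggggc
miR-1268a: cGGGCGUGgugguggggg
let-7a-5p, a Dicer-made miRNA for comparison: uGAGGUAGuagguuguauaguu

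miR-4454 lies at chr4:163093607-163093626 on the minus strand, within the MIR4454 gene and no other gene of the table. Its last 5 bases, in capitals here, are CACCA, and miR-1260a, another entry of uncertain origin, ends in the same 5.
miR-4454: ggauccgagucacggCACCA
miR-1260a: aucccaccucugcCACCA
Of 2351 distinct human mature sequences in RefSeq, 6 (0.255%) end in CACCA and 45 (1.91%) end in CCA. Among the 93 tested miRNAs with a sequence, miR-4454 and miR-1260a were the 2 that end in CCA. A tRNA also ends in CCA, but the ending alone names no source. miR-1260a lies at chr14:77266231-77266248 on the plus strand, inside the span of the protein-coding gene NGB.

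miR-4516 lies at chr16:2133120-2133136 on the plus strand, inside the span of the protein-coding gene PKD1 (chr16:2088708-2135898), and the table does not say whether exon or intron. It is shown within its annotated hairpin, with the mature part, bases 2 to 18 of 86, in capitals.
MIR4516: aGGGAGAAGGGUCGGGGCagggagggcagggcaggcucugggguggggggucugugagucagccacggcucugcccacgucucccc
The mature sequence is 17 bases long and 64.7% G, a share that 21 of the 2351 sequences (0.893%) reach. miR-1268a lies at chr15:22225308-22225325 on the minus strand. It is 18 bases long and 72.2% G, which 5 of the 2351 sequences reach, and all 18 of its bases recur in miR-1268b. miR-4454, in contrast, is 30% G, near the median of 27.3% over all sequences. No seed is shared among miR-4454, miR-4516 and miR-1268a.

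The deposited values are counts above a background, multiplied by 1 factor per library. The factors were 0.231, 1.09 and 0.469 for siPRKRA replicates 1, 2 and 3 and 1.50, 1.53 and 1.32 for control siRNA replicates 1, 2 and 3. Before the factor, the miRNA rows summed to 142690 to 305302 counts in siPRKRA libraries and to 51640 to 56194 in control siRNA libraries. Nearly all rows not above background lay at a floor, which was 1, 1.09 and 1 in siPRKRA replicates 1, 2 and 3 and 1.50, 1.53 and 1.32 in control siRNA replicates 1, 2 and 3. Epithelial marker miRNAs (the miR-200 family and miR-205-5p) summed to 7074 to 7810 in siPRKRA and 8540 to 9753 in control siRNA libraries. Most of that sum was miR-200c-3p and miR-205-5p. miR-200b-3p averaged 81.5 in siPRKRA and 61.5 in control siRNA libraries. miR-200a-3p (17.2, 1 and 8.86) and miR-429 (6.55, 1.09 and 3.23 in siPRKRA replicates 1, 2 and 3) were at the floor in all control siRNA libraries. Of the markers of other tissues, neural miR-9-5p lay at 152 to 371 in siPRKRA and 316 to 342 in control siRNA libraries and endothelial miR-126-3p at 161 to 216 in siPRKRA and 214 to 229 in control siRNA libraries. Of 5 blood markers 1 was named, miR-144-3p, at 10.0, 1.09 and 39.4 in siPRKRA replicates 1, 2 and 3 and 6.07, 151 and 79.4 in control siRNA replicates 1, 2 and 3, and 0 of 5 muscle markers were named.

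miR-4454 was the entry with the highest mean level of the 5. Its value was 2331, 155810 and 3023 in siPRKRA replicates 1, 2 and 3, against 2779, 5350 and 3722 in control siRNA replicates 1, 2 and 3. siPRKRA replicate 2 was 29.1-fold above the next highest library, siPRKRA replicate 1 was the lowest of all, and siPRKRA replicate 3 lay between control siRNA replicates 1 and 3. It ranked first of 800 miRNA rows in siPRKRA replicate 2 and between ranks 3 and 10 in the other 5 libraries. In counts above background, it reached 143537 in siPRKRA replicate 2, against 10094 and 6441 in siPRKRA replicates 1 and 3 and 1858 to 3507 in control siRNA libraries. That library was thus the highest before the factor was applied as well.

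miR-720 followed the same course at a lower level. Its value was 542, 23707 and 715 in siPRKRA replicates 1, 2 and 3, against 945, 1367 and 915 in control siRNA replicates 1, 2 and 3. siPRKRA replicate 2 was 17.3-fold above the next highest library, and the other siPRKRA libraries lay below every control siRNA library. In counts, it stood at 21840 in siPRKRA replicate 2 and at 2347 and 1523 in siPRKRA replicates 1 and 3. Because the RNA came from whole cultures, more copies per cell and more cells holding them cannot be told apart.

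The ratio of miR-4454 to miR-720 does not depend on a library's factor. It was 4.30, 6.57 and 4.23 in siPRKRA replicates 1, 2 and 3 and 2.94, 3.91 and 4.07 in control siRNA replicates 1, 2 and 3. Over the 6 libraries this ratio spanned 2.24-fold, whereas miR-4454 spanned 66.9-fold and miR-720 43.8-fold. Both entries were also higher in control siRNA replicate 2 than in the other control siRNA libraries, by 0.73 and 0.56 log2 units over their mean. In each of the 6 libraries the pair departed in the same direction from the other libraries of its group. Both entries were chosen above all for their level in siPRKRA replicate 2, and departures within a group of 3 depend on one another. The shared direction is thus not 6 separate agreements, and the wide spans also rest on siPRKRA replicate 2. miR-4454 shared its direction with miR-1260a in 6 libraries, with miR-1268a in 5, with miR-4532 in 4 and with miR-4516 in 3.

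**Figure D1:**
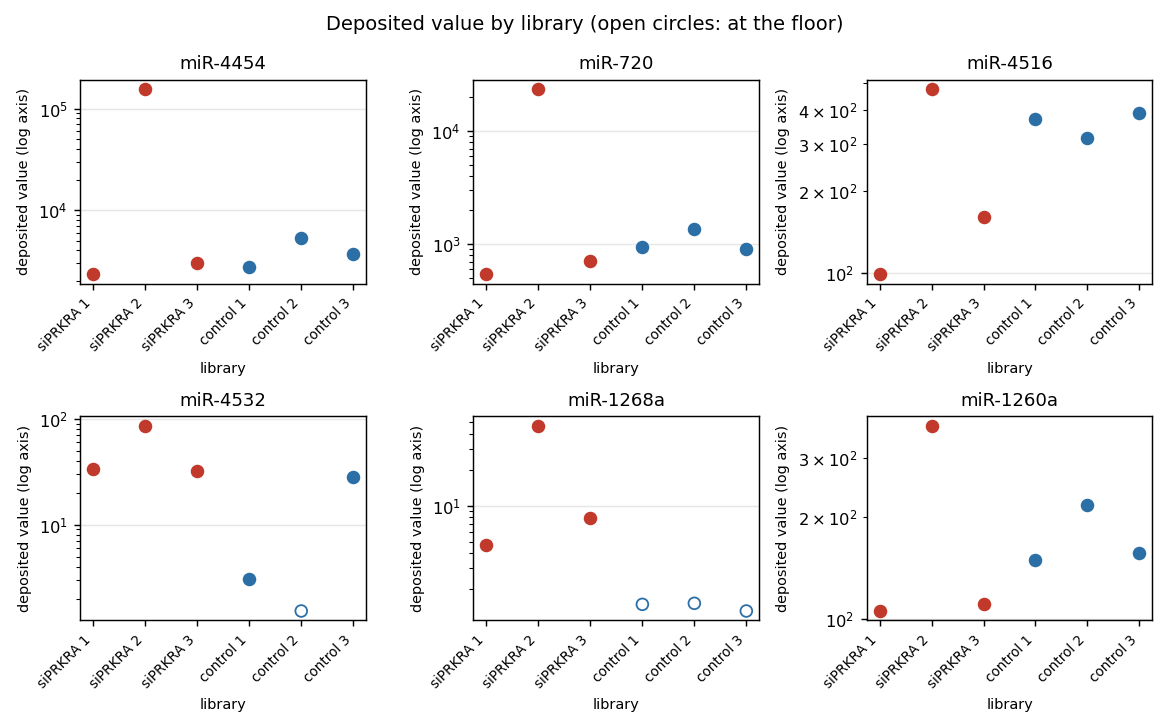
Deposited value (log axis, a separate scale per panel) of the 5 entries and of miR-1260a in each library, siPRKRA in red and control siRNA in blue, with open circles at the floor. Each panel has its highest point in siPRKRA replicate 2, and miR-1268a is at the floor in the 3 control siRNA libraries.

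The 5 entries made up 4.23%, 72.4% and 5.83% of the summed miRNA signal in siPRKRA replicates 1, 2 and 3, against 5.09%, 8.81% and 6.76% in control siRNA replicates 1, 2 and 3. miR-4454 alone held 62.6% of the signal in siPRKRA replicate 2 (exact Clopper-Pearson 95% interval from counts 62.6% to 63.0%) and miR-720 held 9.53% (9.44% to 9.68%). These intervals are for shares of counts with rows at the floor left out, which differ slightly from shares of the signal. They cover counting error only. The signal of the other miRNAs in siPRKRA replicate 2 summed to 68636, within the 63660 to 76384 of the other 5 libraries. The 5 entries summed to 180126 there, 179517 of it in miR-4454 and miR-720, and to 3010 to 7035 in the other 5 libraries. The mean share of the 5 entries in siPRKRA minus that in control siRNA libraries was 20.6 percentage points, and -1.86 without siPRKRA replicate 2.

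**Figure D2:**
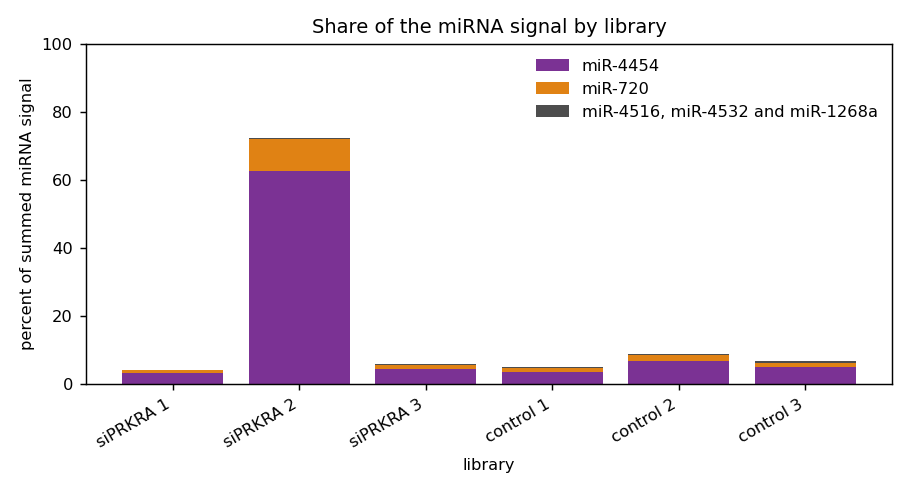
Percent of the summed miRNA signal held by miR-4454, miR-720 and the other 3 entries together, by library. The stack reaches 72.4% in siPRKRA replicate 2 and 4.23% to 8.81% in the other libraries.

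miR-4516, the G-rich entry within PKD1, had values of 98.9, 477 and 161 in siPRKRA replicates 1, 2 and 3, against 370, 314 and 388 in control siRNA replicates 1, 2 and 3. siPRKRA replicate 2 was above every control siRNA library and the other siPRKRA libraries were below them all. Before the factor the picture differed, with 428, 439 and 343 counts in siPRKRA replicates 1, 2 and 3 against 247, 206 and 295 in control siRNA replicates 1, 2 and 3. In counts siPRKRA replicate 2 did not stand apart from siPRKRA replicate 1, and the siPRKRA libraries lay above the control siRNA libraries. Summed miRNA counts were also higher in siPRKRA libraries, so counts compare libraries of unlike depth. As a percent of the miRNA signal miR-4516 held 0.139, 0.192 and 0.238 in siPRKRA replicates 1, 2 and 3. The share was 0.459, 0.394 and 0.519 in control siRNA replicates 1, 2 and 3. In siPRKRA replicate 2, miR-4454 and miR-720 made up most of that signal. The factor of siPRKRA replicate 2, 1.09, was the largest of the siPRKRA libraries.

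miR-4532 had values of 33.8, 85.9 and 32.3 in siPRKRA replicates 1, 2 and 3, against 3.08, 1.53 and 28.1 in control siRNA replicates 1, 2 and 3. The groups did not overlap, but control siRNA replicate 3 came close to the lowest siPRKRA library, and control siRNA replicate 2 was at the floor. Such a pattern, siPRKRA higher without overlap, was seen in 13 of the tested miRNAs (12.3%), so it is not particular to this entry. In counts above background it stood at 146, 79.2 and 68.9 in siPRKRA replicates 1, 2 and 3 and at 2.06 and 21.4 in control siRNA replicates 1 and 3. siPRKRA replicate 2 was the highest in value but not in counts.

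miR-1268a was the lowest of the 5. Its value was 4.70, 46.9 and 7.92 in siPRKRA replicates 1, 2 and 3, against the floor in all control siRNA libraries (1.50, 1.53 and 1.32). It reached a value of 30 in siPRKRA replicate 2 alone and so was not among the tested miRNAs, and no fold change is given against the floor. In counts it held 20.4, 43.2 and 16.9 above background in siPRKRA replicates 1, 2 and 3, the second of these the highest. Of the 198 miRNAs that left the floor in any library, 16.7% were higher in siPRKRA without overlap, among them miR-1268a and miR-4532. More rows lay above the floor in siPRKRA (165 to 174) than in control siRNA libraries (125 to 130), whose summed counts were lower. The part of this difference in the lack of overlap was not tested.

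The comparison of siPRKRA with control siRNA asked whether these entries differ in cells given an siRNA against the Dicer partner. In limma, on log2(value + 1) over miRNAs that reached a value of 30 in 3 or more libraries, 0 miRNAs had an adjusted p under 0.05 (0%), and 0 of the 4 tested entries did. The estimate was above 0 for 3 of the 4 entries and below 0 for 1, beside 44 above and 62 below over everything tested. At an unadjusted p under 0.05 there were 17 miRNAs (16%), miR-4532 among them. limma-voom on recovered counts gave 0 at an adjusted p under 0.05. With no filter on low values 635 of the 800 rows passed (79.4%), miR-4532 and miR-1268a among them. Only 125 to 174 rows per library lay above the floor, which was 1 to 1.09 in siPRKRA and 1.32 to 1.53 in control siRNA libraries. Rows at the floor thus differ between the groups by the floor alone, so a pass without the filter is not read as a change. Because the entries were grouped with these libraries in view, their own estimates are given as a description. The log2 fold change of siPRKRA over control siRNA was 1.44 ± 1.61 (SE; limma adjusted p = 0.651) for miR-4454 and 0.99 ± 1.43 (SE; adjusted p = 0.739) for miR-720. It was -0.85 ± 0.55 (SE; adjusted p = 0.417) for miR-4516 and 2.80 ± 1.02 (SE; adjusted p = 0.265) for miR-4532. miR-4454 averaged 53721 ± 88412 in siPRKRA and 3950 ± 1301 in control siRNA libraries (SD, n = 3 each), a spread wider than the difference. miR-720 averaged 8321 ± 13325 in siPRKRA and 1076 ± 253 in control siRNA libraries (SD, n = 3 each).

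For miR-4454 and miR-720, 1 library set the direction. Without siPRKRA replicate 2 the log2 fold change was -0.52 for miR-4454 (limma adjusted p = 0.243) and -0.76 for miR-720 (adjusted p = 0.0727). The sign turned in this way for 15.1% of tested miRNAs. Without that library miR-4516 was lower in siPRKRA, with an estimate of -1.49 ± 0.22 on the log2 scale (SE; limma adjusted p = 0.0137). It was 1 of 4 calls, all lower (3.77%), beside let-7b-5p, miR-302d-3p and miR-378e. The estimate for miR-4532 without it was 2.35 (adjusted p = 0.238). siPRKRA replicates 1 and 3, which carry that call, were the libraries with the smallest factors. With the graded control probes as the scale, miR-4454, miR-720 and miR-4532 were called higher (3.10, 2.65 and 4.19 log2 units, limma adjusted p = 0.00602, 0.016 and 0.00106) and the estimate for miR-4516 was 0.81. That scaling called 20.8% of tested miRNAs higher and moved their median log2 fold change to 1.61, so that miR-4516 still lay below it. With the 5 mRNA rows as the scale, the median was -0.62 and the estimates were 0.87 for miR-4454, 0.42 for miR-720, -1.41 for miR-4516 and 2.31 for miR-4532 (limma adjusted p = 0.468, 0.652, 0.126 and 0.25).

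To set the entries against miRNAs known to be made by Dicer, the departure of siPRKRA replicate 2 was taken for each miRNA as its log2(value + 1) there minus the mean of siPRKRA replicates 1 and 3. It was 5.87 for miR-4454, 5.25 for miR-720, 1.91 for miR-4516, 1.35 for miR-4532 and 2.75 for miR-1268a. The median over the tested miRNAs was -0.09, and the quartiles were -0.54 and 0.37. Of the tested miRNAs, 12 (11.3%) departed upward by at least 1 log2 unit, the 4 tested entries at ranks 1, 2, 4 and 10 among them. miR-378e (2.05), miR-302d-3p (1.82) and miR-1260a (1.78) lay close to miR-4516. No tested miRNA lay between miR-378e and miR-720.

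Over 27 tested probes of 5 Dicer-made lists, the median departure was -0.17, and 1 probe, let-7b-5p at 1.30, reached 1 log2 unit. These lists do not cover all tested miRNAs. They leave out miR-378e, miR-302d-3p, miR-338-3p, miR-371a-3p and miR-423-5p, which departed further than miR-4532. The let-7 family, which represses RAS and LIN28, had a median of 0.38 over 8 probes. The miR-200 family, which guards the epithelial state, had -0.52 over 3, and the miR-29 family, which restrains collagen genes, had -0.72 over 3. The MYC-induced miR-17-92 cluster and its paralogs had -0.64 over 8, with miR-19a-3p as low as -2.71. The clusters that hold miR-23, miR-24 and miR-27 had -0.17 over 5. Against let-7a-5p, miR-4454 had a ratio of 12.5 in siPRKRA replicate 2 and of 0.293 to 0.633 in the other 5 libraries. In siPRKRA against control siRNA, 0 of the 27 probes passed in either direction, with a median log2 fold change of -0.17, beside -0.06 over all tested miRNAs.

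**Figure D3:**
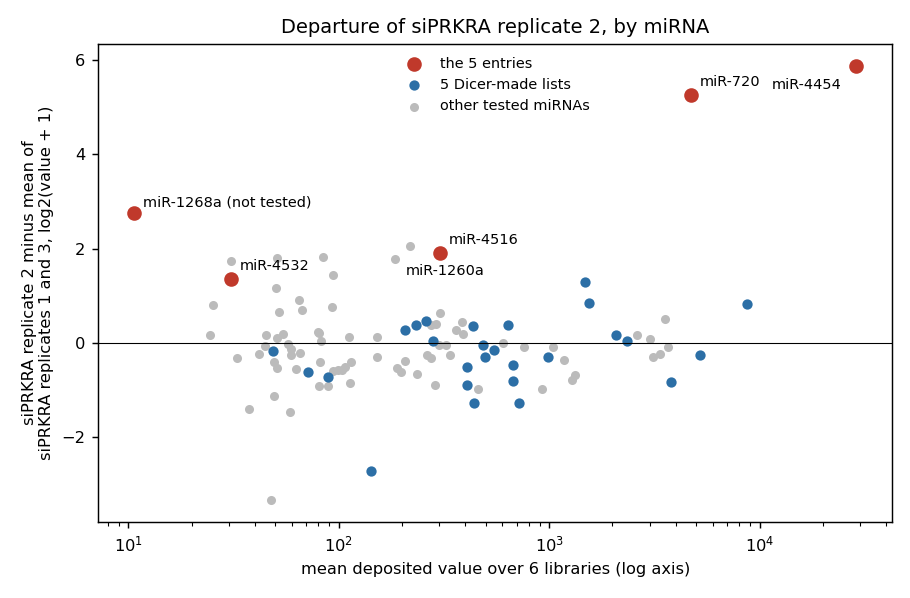
Departure of siPRKRA replicate 2 from the mean of siPRKRA replicates 1 and 3 (log2 scale) against mean deposited value over 6 libraries (log axis), for the 5 entries (red), probes of 5 Dicer-made lists (blue) and the other tested miRNAs (grey). miR-4454 and miR-720 lie at 5.87 and 5.25, above all other points.

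The departure of all 5 entries shrank under scalings that lowered siPRKRA replicate 2 as a whole. Scaled by the 5 mRNA rows of the panel, it was 4.62 for miR-4454, 3.99 for miR-720, 1.54 for miR-1268a, 0.65 for miR-4516 and 0.12 for miR-4532. With the 5 graded control probes as the scale, the departures were 4.43, 3.81, 1.44, 0.47 and -0.07 in the same order. These scalings moved the median of the tested miRNAs to -1.34 (mRNA rows) and -1.53 (graded control probes). Rescaling a library moves its miRNAs together, so the distance from that median barely changed. On the deposited, mRNA and graded scales it was 5.96 in each case for miR-4454, 5.33 to 5.34 for miR-720, 2.83 to 2.97 for miR-1268a and 1.44 to 1.46 for miR-4532. For miR-4516 it was 1.99 on the deposited scale and 2.001 on the graded one. With values scaled by the median of ratios or by the total without the 5 entries, the departures of miR-4454 were 5.94 and 5.81.

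**Figure D4:**
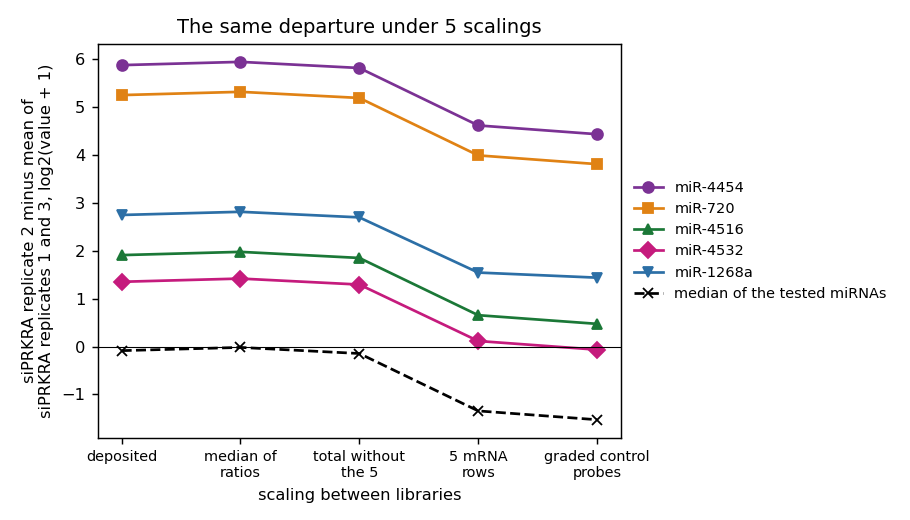
The departure of siPRKRA replicate 2 (log2 scale) of each entry under 5 scalings, with the median of the tested miRNAs as a dashed line; lines join the points of 1 entry to guide the eye. miR-4454 and miR-720 stay above 3.8 throughout, and all entries keep nearly the same distance from the dashed line, which lies at -1.53 under the graded control probes, where miR-4532 is at -0.07.

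The reference mRNAs of the panel moved in that library too. RPL19, RPLP0, ACTB, GAPDH and B2M, all made by RNA polymerase II, had departures of 1.40, 1.19, 1.23, 1.09 and 1.38 log2 units. Their geometric mean value was 1626, 4233 and 1924 in siPRKRA replicates 1, 2 and 3, against 1644, 1445 and 1731 in control siRNA replicates 1, 2 and 3. In counts it was 7040, 3900 and 4100 in siPRKRA replicates 1, 2 and 3, against 1099, 947 and 1316 in control siRNA replicates 1, 2 and 3. Before the factor siPRKRA replicate 2 was thus the lowest of the siPRKRA libraries, though above every control siRNA library. The control siRNA libraries also had lower summed miRNA counts. The part of this shift in the values of the entries was not tested, beyond the scaling by the same rows given above. Relative to these mRNAs miR-4454 departed by 4.62 log2 units.

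Since siPRKRA replicate 2 decides any likeness over 6 libraries, profiles were also compared over the other 5, an alternative chosen after the data were seen. Likeness was the root mean square distance between log2(value + 1) profiles, each centred on its own mean. Over 6 libraries the nearest of the tested miRNAs to miR-4454 was miR-720, at 0.34, followed by miR-1260a at 1.57 and miR-423-5p at 1.68. Over 5 libraries the nearest were miR-1260a at 0.19 and miR-720 at 0.20, and the third, a probe that miR-20a-5p shares with miR-20b-5p, lay at 0.30. For miR-720 the nearest over 5 libraries were miR-1260a at 0.12 and miR-4454 at 0.20, and the third was let-7b-5p at 0.25. The median distance of all tested miRNAs was 0.45 from miR-4454 and 0.47 from miR-720. Over 5 libraries, among 5565 pairs of tested miRNAs with a median distance of 0.37, miR-720 and miR-1260a ranked 522, counted from the closest. miR-4454 and miR-1260a ranked 1249 and miR-4454 and miR-720 ranked 1428.

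No sequence of miR-720 was at hand, so the CACCA end is known to be shared only by miR-4454 and miR-1260a. A link between that end and the profiles was not tested. miR-1260a was the nearest tested miRNA to both entries over these 5 libraries, though many other pairs lay closer. Over 6 libraries miR-1260a lay 1.57 from miR-4454 and 1.28 from miR-720. Its value was 105, 374 and 111 in siPRKRA replicates 1, 2 and 3, against 150, 217 and 157 in control siRNA replicates 1, 2 and 3. The order of the libraries was nearly that of miR-720, with siPRKRA replicate 2 highest, control siRNA replicate 2 next and the other siPRKRA libraries lowest. Its departure in siPRKRA replicate 2 was 1.78, far from the 5.87 of miR-4454, and in counts it held 344 there, between the 456 and 236 of siPRKRA replicates 1 and 3. Its log2 fold change was -0.07 ± 0.51 (SE; limma adjusted p = 0.949). Of a list of 41 other entries of uncertain origin, 3 were among the named rows and 1, miR-1260a, was tested. The other 2 lay low, miR-4286 at 11.4 to 20.8 in siPRKRA and 6.27 to 12.1 in control siRNA libraries, and miR-4488 at 4.01 to 24.1 in siPRKRA and 1.50 to 11.02 in control siRNA libraries.

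**Figure D5:**
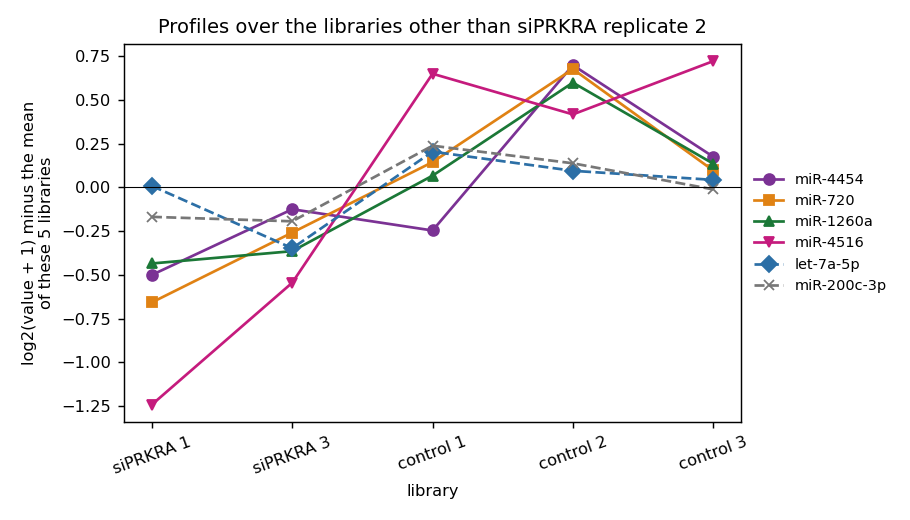
log2(value + 1) of miR-4454, miR-720, miR-1260a and miR-4516 (solid) and of let-7a-5p and miR-200c-3p (dashed) in the 5 libraries other than siPRKRA replicate 2, each centred on its mean; lines join the points of 1 miRNA to guide the eye. miR-4454, miR-720 and miR-1260a share their highest point in control siRNA replicate 2, and miR-4516 does not.

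Outside siPRKRA replicate 2, miR-4516, miR-4532 and miR-1268a lay farther from miR-4454 than miR-720 did. The distance of miR-4516 from miR-4454 was 0.62 over 5 libraries, and its nearest miRNAs were miR-302d-3p at 0.34 and miR-10a-5p at 0.42. In control siRNA replicate 2, where miR-4454 and miR-720 were highest among controls, miR-4516 was lowest. miR-4532 lay nearest to miR-193b-3p, at 0.56, and miR-296-5p, at 0.73, and 1.91 from miR-4454. Its profile was set largely by control siRNA replicate 1, at 2.06 counts, and control siRNA replicate 2, at the floor. These 2 neighbours were also low, with mean values of 25.2 and 24.3. Distances of miR-4532 thus do not show that it moved apart from the other entries. miR-1268a, flat at the floor in control siRNA libraries, lay 1.06 from miR-4454. The distances among these 3 were 2.19 for miR-4516 and miR-4532, 1.49 for miR-4516 and miR-1268a and 1.31 for miR-4532 and miR-1268a. Each of these distances involves an entry near the floor. The pattern with siPRKRA replicates 1 and 3 below every control siRNA library and siPRKRA replicate 2 above every one was shown by miR-720 and miR-4516, but also by miR-1260a, let-7a-5p, let-7b-5p, let-7e-5p, miR-25-3p and miR-26a-5p, 7.55% of tested miRNAs.

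The authors' deposited table lists none of the 5 at an adjusted p under 0.05. In the authors' deposited table the adjusted p was 0.779 for miR-4454, 0.846 for miR-720, 0.588 for miR-4516, 0.452 for miR-4532 and 0.452 for miR-1268a. The fold change given in the authors' deposited table is a ratio of mean log2 levels, so its 1.12 for miR-4454 and 6.73 for miR-1268a are not ratios of linear levels.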

How the data were processed

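The authors deposited a processed signal per probe in 6 nCounter libraries (822 rows, of which 800 are miRNAs, 5 mRNAs and 12 controls), and log2 of the same signal for the 800 rows, which matched it within 0.000234. The authors' deposited comparison table gives a p-value, an adjusted p-value, 2 log2 levels and a signed ratio, or score, for 177 miRNAs. The software, the background rule and the scaling probes are each not given in the sources used here. From the values, miRNA rows are counts above background times 1 factor per library: 100% of 64 to 115 values checked per library were whole within 0.1 count.

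The test was limma (version 3.58.1, under R 4.3.3; eBayes trend, group alone) on log2(value + 1) of 106 miRNAs that reached 30 in 3 or more libraries. It was two-sided, with calls at a Benjamini-Hochberg adjusted p under 0.05. The fold change understates low values. The fit was also run on simulated data in which the spread of each miRNA was capped and no library stood apart. That run cannot show how the fit handles miR-4454 and miR-720. Graded control probes are the 5 control rows above 100 in every library.

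The 5 entries and all lists were chosen with earlier results of these data known. Named were the 5 entries, listed entries above the floor, high members of the Dicer-made lists, nearest profiles, the smallest p-values and the largest departures. Named after their values were seen were miR-25-3p, miR-26a-5p, miR-338-3p, miR-371a-3p and nearest profiles without siPRKRA replicate 2. Tables used pandas 2.3.3, scipy 1.17.1 and numpy 2.4.6 under Python 3.11.15, and figures matplotlib 3.10.9.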

Additional observations from a re-analysis of the deposited data

How the results depend on the processing

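Each library was left out in turn, which gave log2 fold changes of -0.52 to 2.51 for miR-4454, -0.76 to 1.96 for miR-720, -1.49 to -0.36 for miR-4516 and 2.09 to 3.86 for miR-4532, and 0 to 4 changed miRNAs. The difference in the share of the 5 entries ranged from -1.86 to 32.2 percentage points. The lowest values of the first 3 and of the share came without siPRKRA replicate 2. Without control siRNA replicate 3, the calls were miR-186-5p and miR-193b-3p. Scaled by the graded control probes, the log2 fold changes were 3.10 for miR-4454, 2.65 for miR-720 and 4.19 for miR-4532 (limma adjusted p = 0.00602, 0.016 and 0.00106) and 0.81 for miR-4516. That scaling gave 22 calls, all higher (20.8%), and a median log2 fold change of 1.61 over all tested miRNAs. Scaled by the 5 mRNA rows, 1 miRNA was called, miR-378e, at -2.01, and the estimates were 0.87 for miR-4454, 0.42 for miR-720, -1.41 for miR-4516 and 2.31 for miR-4532. With no filter 635 of 800 were called (79.4%), and miR-4532, at 2.80, passed. In that setting rows at the floor differ between the groups because the floors are unequal. Both scalings lowered the departure of siPRKRA replicate 2 for all 5 entries together with the median of tested miRNAs (-1.34 by mRNA rows, -1.53 by graded control probes). The departures came to 4.62 and 4.43 for miR-4454, 3.99 and 3.81 for miR-720, 1.54 and 1.44 for miR-1268a, 0.65 and 0.47 for miR-4516 and 0.12 and -0.0652 for miR-4532. With a pseudocount of 10 that of miR-1268a was 1.81. At a minimum value of 100 in 3 libraries 68 miRNAs were tested and miR-4532 was not. The other alternatives kept the direction and call of the 4 tested entries.

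With the replicate number as a replicate block, 0 miRNAs were called and the log2 fold changes were 1.44, 0.99, -0.85 and 2.80 for miR-4454, miR-720, miR-4516 and miR-4532. Deviations of same-numbered libraries correlated weakly across miRNAs, at 0.171, -0.088 and -0.0731, and control siRNA replicate 2 correlated best with siPRKRA replicate 3. These correlations cannot show whether libraries of the same number were handled together. Entries near the floor, miR-4532 and miR-1268a, rest on few counts in control siRNA libraries.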
